A study of Mus musculus with 18 samples.

Results

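The genes described here are 10 regulators of the G1 phase of the cell cycle: the D-type cyclins Ccnd1, Ccnd2 and Ccnd3, the E-type cyclins Ccne1 and Ccne2, the kinases Cdk4 and Cdk6, and the CDK inhibitors Cdkn1a, Cdkn1b and Cdkn2c. They were chosen by name and matched by gene identifier to the GRCm38 annotation, and they make up 10 of the 51912 genes in the table. All 10 passed the filter on low counts in each of the 9 comparisons. RNA was sequenced from B cells of C57BL/6 mice in 6 groups of 3 libraries each. The groups were transitional B cells of WT mice (Sh3gl1+/+ littermates) and of Sh3gl1-/- mice, untreated; follicular B cells of WT mice and of Sh3gl1-/- mice, untreated; and follicular B cells of WT mice and of Sh3gl1-/- mice after 14 h with CD40L by the labels. Sh3gl1 encodes endophilin A2, a membrane-bending protein of endocytosis, and the Sh3gl1-/- mice carry the deletion in every cell, so an effect within B cells and an effect of the animal cannot be told apart. Neither age nor sex of the mice is given in the labels. CD40L stands for the help that T cells give to B cells through CD40.

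The libraries held between 12404693 and 18366045 counts, so that 3 counts, the lowest level read as detected, amount to between 0.163 and 0.242 CPM (counts scaled to a common library size). Sh3gl1 was counted 377 to 929 times in the WT libraries and 1 to 22 times in the Sh3gl1-/- libraries, in the direction of every label. Markers of the cell states mostly went the way of the labels. All 6 B cell markers were counted in all libraries. The 4 transitional markers that could be tested (Cd93, Vpreb3, Rag1 and Myb) were lower in follicular than in transitional cells of both genotypes. Of 6 follicular markers, 4 were higher and 1 lower over this step in WT cells, and 5 higher and 0 lower in Sh3gl1-/- cells. After CD40L 1 of these 6 was higher and 4 lower in both genotypes. Of the B cell markers, 5 were lower in follicular than in transitional WT cells and 3 in Sh3gl1-/- cells. One library stands apart for genes of the cell cycle: replicate 3 of the CD40L-treated WT cells. Its summed level of 12 markers of cycling cells was 588 CPM, against 199 and 209 CPM in the other two, and values without it are given beside several of the CD40L results. In bulk RNA of this kind, fewer cells of a type (or fewer in cycle) and less RNA per cell cannot be told apart.

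Progress through G1 is governed by a balance of cyclins and inhibitors. D-type cyclins are made in response to outside signals and bind CDK4 or CDK6, and these kinases begin to phosphorylate the retinoblastoma protein Rb. E-type cyclins with CDK2 complete this step, which frees E2F factors to switch on the genes of DNA replication. Inhibitors of the INK4 family, such as p18 from Cdkn2c, bind CDK4 and CDK6 alone, while those of the CIP/KIP family, p21 from Cdkn1a and p27 from Cdkn1b, bind cyclin and CDK complexes more widely. Resting B cells hold much p27. Cyclin D2 and cyclin D3 are the D-type cyclins best known in B cells, cyclin D2 in mature B cells that are activated and cyclin D3 in pre-B cells and germinal centres.

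The 3 D-type cyclins are separate genes whose proteins bind the same partners, and their sequences are shown because the results turn on which of them is transcribed. Over the whole coding sequence, Ccnd2 was 65.9% identical to Ccnd1 and 65.9% identical to Ccnd3, and Ccnd1 was 61.4% identical to Ccnd3. The first 60 coding bases of each, from the GENCODE M21 transcripts (GRCm38), are printed 5′ to 3′ on the coding strand, with the codons of the LxCxE motif, through which D-type cyclins bind Rb, in capitals. They lie at chr7:144939634-144939693 (minus strand) for Ccnd1, chr6:127150714-127150773 (minus strand) for Ccnd2 and chr17:47593655-47593714 (plus strand) for Ccnd3.
Ccnd1: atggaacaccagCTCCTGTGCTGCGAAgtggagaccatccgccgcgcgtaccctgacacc
Ccnd2: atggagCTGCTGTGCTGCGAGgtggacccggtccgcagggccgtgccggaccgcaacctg
Ccnd3: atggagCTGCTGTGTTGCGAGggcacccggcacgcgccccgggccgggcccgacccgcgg
The motif began at codon 5 in Ccnd1 and at codon 3 in Ccnd2 and Ccnd3. Just past it Ccnd1 and Ccnd2 both read gtgga, while Ccnd3 read ggcac.

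The second sequence shown lies upstream of Cdk4. Of the 7 members with a promoter window it had the most copies of a known growth motif. CACGTG is the E-box bound by Myc with its partner Max, and it reads the same on both strands. RefSeq promoter windows (GRCm38.p6, 250 bases before to 50 bases after the start of the gene) were at hand for 7 of the 10 members, in 10 windows in all. Ccnd1, Ccnd2 and Ccne2 had none. Cdk4 held 4 copies, first bases at -172, -118, -98 and -11 from the RefSeq start on which its window is built. That start lies just after the GENCODE start of the gene. Cdk6 held 1 copy, and 1 of the 2 windows of Cdkn2c held 1. The other members' windows held no match to these letters. Of all 32851 windows, 7.15% held at least 1 copy and 8 windows (0.0244%) held 4 or more. The part upstream of the gene, chr10:127063285-127063533 on the plus strand, is printed with each copy in capitals.
Cdk4: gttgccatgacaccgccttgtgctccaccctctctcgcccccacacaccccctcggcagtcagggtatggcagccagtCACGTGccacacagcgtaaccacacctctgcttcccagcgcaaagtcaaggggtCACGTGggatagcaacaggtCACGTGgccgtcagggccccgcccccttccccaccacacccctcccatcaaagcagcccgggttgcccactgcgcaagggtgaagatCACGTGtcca
The motif was looked for because Myc was on the list of factors that act on these genes, and Cdk4 was singled out after its matches were counted. A match is a description of the letters and not of binding.

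Per length of transcript, the G1 machinery of these cells was led by Cdk4 and Ccnd2. In follicular cells of WT mice ex vivo the mean level in TPM (transcript abundance scaled to transcript length and library) was 204 ± 17.97 (SD, n = 3) for Cdk4, 147 ± 15.4 for Ccnd2, 53.6 ± 4.37 for Ccnd3 and 34.2 ± 3.15 for Cdkn1b. Cdkn2c and Cdk6 followed at 12.9 ± 1.62 and 12.1 ± 2.06 TPM. The E-type cyclins and Cdkn1a lay lower, between 1.71 TPM for Cdkn1a and 4.59 TPM for Ccne2, and Ccnd1 was lowest at 0.517 ± 0.0833 TPM. After CD40L the order in WT cells was changed in its middle: Ccnd2 (478 ± 204 TPM) and Cdk4 (385 ± 86.1 TPM) still led, but Cdk6 now came next at 20.1 ± 0.618 TPM, above Ccnd3 (14.3 ± 3.38 TPM) and Cdkn1b (11.3 ± 2.88 TPM). Within each of these 3 libraries Ccnd2 was above Cdk4, at 324 against 305 TPM, 401 against 374 TPM and 709 against 476 TPM.

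**Figure D1:**
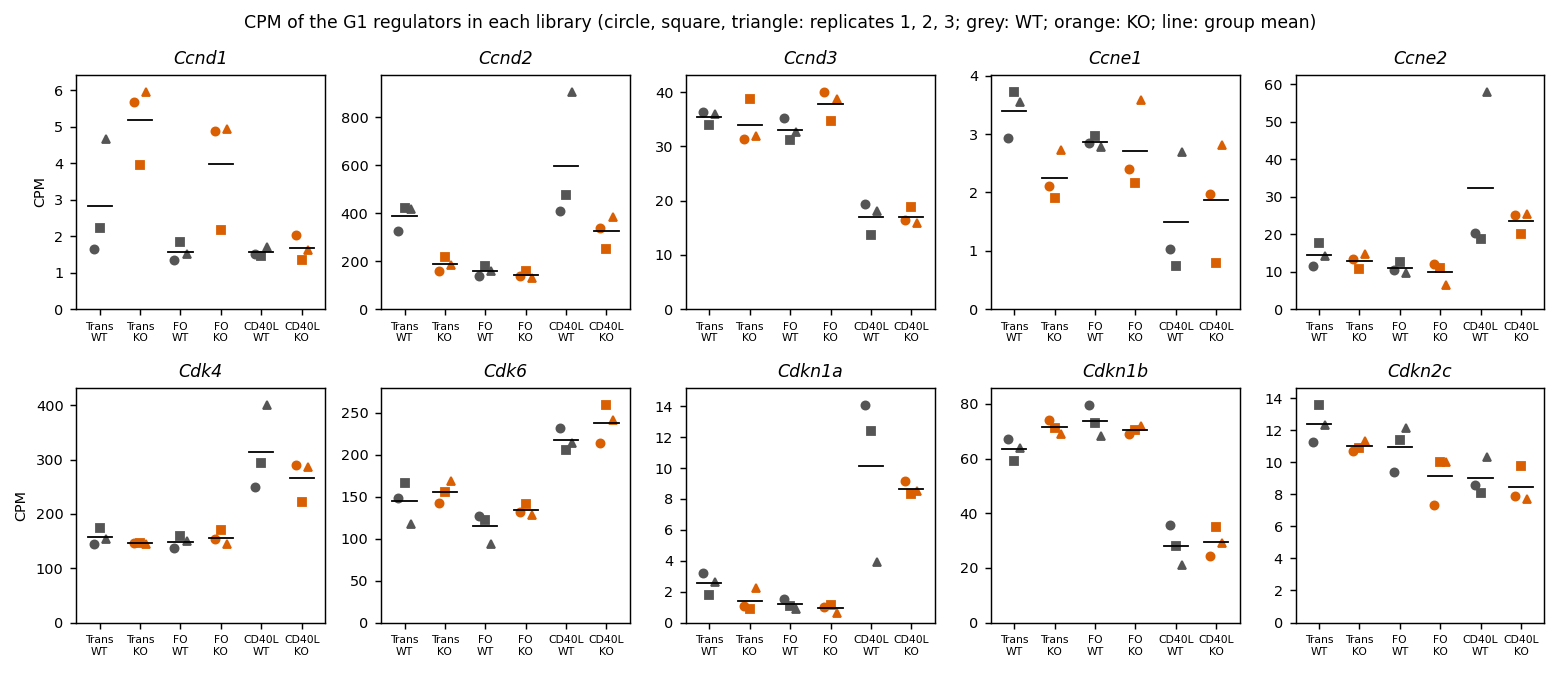
CPM (y axes, linear, from 0) of the 10 genes in each of the 18 libraries, by group (x axes: Trans, transitional; FO, follicular ex vivo; CD40L, follicular after CD40L), with grey points for WT, orange points for Sh3gl1-/- (KO), a symbol for each replicate number and a line at the group mean. Ccnd2 stood at 326 to 421 CPM in transitional WT cells and at 160 to 217 CPM in transitional Sh3gl1-/- cells, and Cdk4, Cdk6, Ccne2 and Cdkn1a were higher and Ccnd3 and Cdkn1b lower in both CD40L groups than in both follicular groups ex vivo.

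The first comparison set the G1 regulators of follicular cells after CD40L against those of follicular cells ex vivo. No group was cultured without CD40L, so an effect of CD40L and an effect of the culture cannot be told apart. A rise, fall or response with CD40L means a difference between these groups. In WT cells 5 members rose (Ccnd2, Ccne2, Cdk4, Cdk6 and Cdkn1a) and 2 fell (Ccnd3 and Cdkn1b), while Ccnd1, Ccne1 and Cdkn2c did not pass the test. The same 5 rose in Sh3gl1-/- cells and 3 fell, with Ccnd1 as the additional fall. A gene counts as called where edgeR's quasi-likelihood test, adjusted over all genes tested by the Benjamini-Hochberg method, gave a p under 0.05. A large part of the transcriptome differed, so these counts stand beside a wide background. Of the 14460 genes tested, 49.3% were called in WT cells (23.6% higher and 25.7% lower) and 42.4% in Sh3gl1-/- cells (20.6% higher and 21.7% lower). The libraries of 8 of the 10 members did not overlap in either genotype, beside 56.5% of all genes in WT cells and 53.2% in Sh3gl1-/- cells. The labels do not tie libraries to animals. A legend of the study names 3 mice per genotype for the follicular cells that were sequenced, while the origin of the 3 transitional libraries of a group is not stated, so the spread between those may be technical.

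Ccnd2, which lies at chr6:127125162-127152193 (minus strand) and overlaps antisense transcripts, encodes cyclin D2. In follicular WT cells its level was 138, 179 and 160 CPM ex vivo and 407, 476 and 905 CPM after CD40L. Sh3gl1-/- cells had 140, 161 and 130 CPM ex vivo and 340, 250 and 384 CPM after CD40L. Every treated library was above every untreated library of either genotype, and the highest value by far was replicate 3 of the WT cells. The rise was 3.68-fold in WT cells (log2 fold change 1.88, SE 0.25, edgeR adjusted p = 3.2e-05) and 2.23-fold in Sh3gl1-/- cells (1.16, SE 0.25, edgeR adjusted p = 0.0018). Without the WT replicate 3 the rise in WT cells was 1.45 on the log2 scale (edgeR adjusted p = 1.5e-05).

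Ccnd3, which encodes cyclin D3 and lies at chr17:47505051-47599691 (plus strand), partly over Bysl on the other strand, went the other way. Ex vivo it stood at 35.3, 31.2 and 32.6 CPM in WT cells and at 40.0, 34.8 and 38.7 CPM in Sh3gl1-/- cells. After CD40L it stood at 19.5, 13.7 and 18.1 CPM and at 16.4, 18.8 and 16.0 CPM. No treated library reached an untreated one. It fell by 0.98 on the log2 scale in WT cells (SE 0.15, edgeR adjusted p = 9.2e-05) and by 1.17 in Sh3gl1-/- cells (SE 0.15, edgeR adjusted p = 2.9e-05). Ccnd3 lies on the same chromosome as Sh3gl1, 8417 kb away, and Cdkn1a also does, 26916 kb away. The effect of DNA linked to the deleted allele was not tested.

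Ccnd1 (chr7:144929931-144939925, minus strand) encodes cyclin D1, the D-type cyclin of many other tissues. It was the scarcest of them, at 17 to 69 counts per library in the follicular groups. In WT cells it was 1.36, 1.85 and 1.504 CPM ex vivo and 1.52, 1.47 and 1.71 CPM after CD40L, which overlap. Sh3gl1-/- cells had 4.88, 2.17 and 4.94 CPM ex vivo and 2.05, 1.36 and 1.63 CPM after CD40L, and these did not overlap. It fell in Sh3gl1-/- cells by 1.26 (SE 0.38, edgeR adjusted p = 0.015), a call that was lost when replicate 1 (edgeR adjusted p = 0.063) or 3 (0.066) of the untreated or replicate 2 (0.053) or 3 (0.051) of the treated Sh3gl1-/- libraries was left out.

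The make-up of the D-type cyclin transcripts also differed after CD40L. In each library the TPM of the 3 genes was set to 100%. Ccnd2 held 73.0% ± 3.43 (SD, n = 3) of it in follicular WT cells ex vivo and 96.6% ± 1.80 after CD40L, and Ccnd3 held 26.7% ± 3.46 and 3.31% ± 1.77. The share of Ccnd3 in Sh3gl1-/- cells went from 33.1% ± 5.53 to 7.94% ± 3.88. The log2 ratio of Ccnd2 to Ccnd3 was higher after CD40L by 3.54 in WT cells and by 2.63 in Sh3gl1-/- cells, and the libraries did not overlap in either. With 3 libraries a group, the exact permutation test (two-sided) cannot give a p below 0.1, which is what both gave (adjusted over 21 ratio comparisons, p = 0.26). From expected counts in place of TPM these differences were 2.79 and 2.31. Ccnd1 made up between 0.10% and 0.81% of it in the means of the 6 groups.

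**Figure D2:**
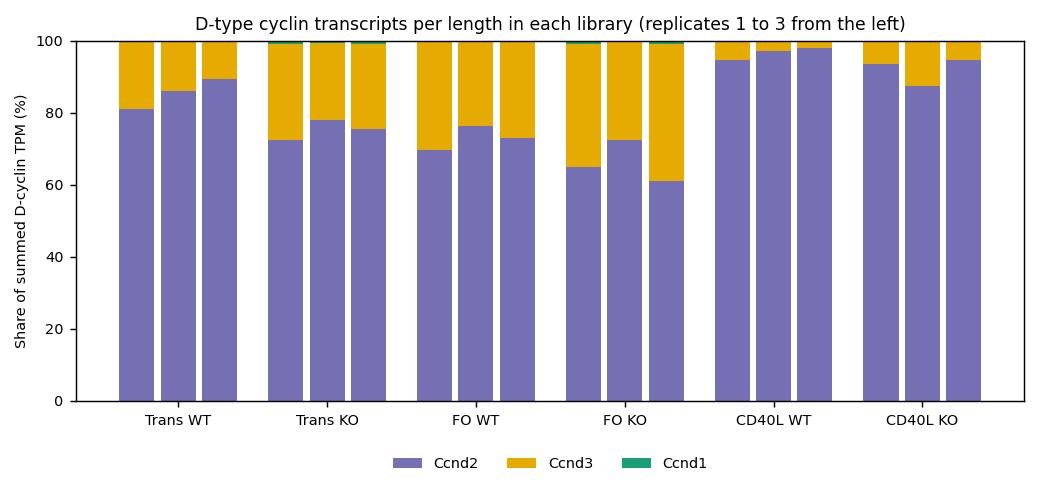
Share of the summed TPM of Ccnd1, Ccnd2 and Ccnd3 (y axis, percent, stacked to 100) in each of the 18 libraries (x axis: groups in the order transitional, follicular ex vivo and CD40L, WT before Sh3gl1-/- (KO), with replicates 1 to 3 from the left in each). Ccnd2 made up 61.2% to 89.4% in the untreated libraries and 87.5% to 98.1% after CD40L.

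The drop of Ccnd3 was deeper per length, from 53.6 to 14.3 TPM in WT cells, than in counts, from 33.1 to 17.1 CPM, and the length assigned to its transcripts differed between these libraries. The deposited counts and FPKM (fragments per kilobase of transcript, scaled to library depth) of a gene together give the mean transcript length that was assumed in each library, and this depends on how reads were shared among its isoforms. For Ccnd3 this length was 721, 760 and 740 bases in follicular WT cells ex vivo and 1093, 1297 and 1385 bases after CD40L. The Sh3gl1-/- libraries gave 687, 729 and 597 bases ex vivo and 919, 661 and 903 bases after CD40L. All 3 treated WT libraries were above the other follicular libraries, and the treated Sh3gl1-/- libraries overlapped the untreated ones. A difference of at least 1.5-fold without overlap was seen for 0.358% of 9508 genes between treated and untreated WT cells and for 0.137% between treated WT and treated Sh3gl1-/- cells, and Ccnd3 was among both. For Cdkn2c the length stayed between 1013 and 1044 bases in all 18 libraries. This measure was chosen after the values were seen, it carries no test here, and the overlap of Ccnd3 with Bysl was not separated from it.

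**Figure D3:**
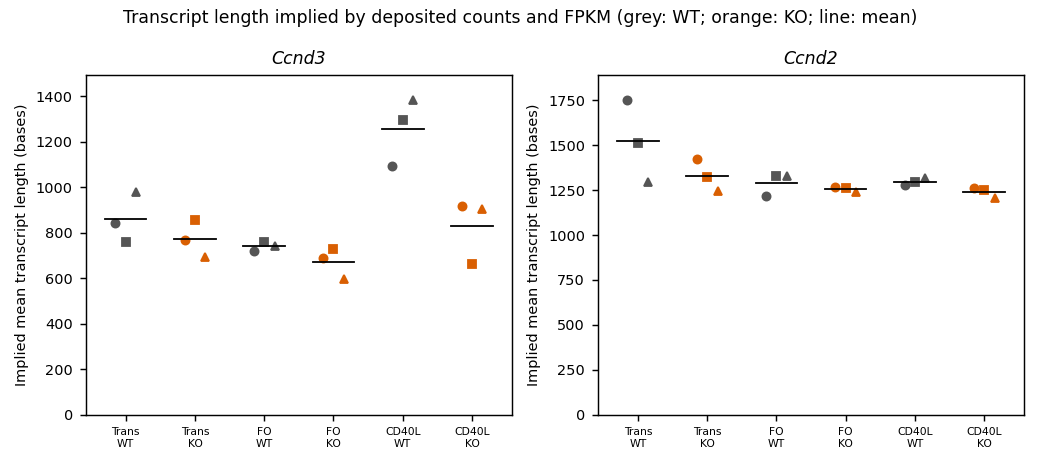
Mean transcript length in bases (y axes, linear, from 0) implied by deposited counts and FPKM for Ccnd3 and Ccnd2 in each library, by group (x axes), with grey points for WT, orange points for Sh3gl1-/- (KO), a symbol for each replicate number and a line at the mean. Ccnd3 stood at 1093 to 1385 bases in CD40L-treated WT cells and between 597 and 981 bases in the other 5 groups, while Ccnd2 stood at 1204 to 1330 bases in all follicular libraries and reached 1754 bases in transitional WT cells.

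Both kinases that pair with D-type cyclins rose. Cdk4 (chr10:127063534-127067920, plus strand, overlapping Tspan31 on the other strand), the gene with the 4 E-boxes printed above, was at 137, 159 and 150 CPM in WT cells ex vivo and at 249.1, 294 and 400 CPM after CD40L. Sh3gl1-/- cells had 154, 171 and 144 CPM and 290, 222 and 286 CPM. The treated and untreated libraries did not overlap. Cdk4 rose 2.08-fold in WT cells (log2 fold change 1.06, SE 0.16, edgeR adjusted p = 8.7e-05) and 1.68-fold in Sh3gl1-/- cells (0.75, SE 0.16, edgeR adjusted p = 0.0017). Without WT replicate 3 the rise in WT cells was 0.85 (edgeR adjusted p = 2.0e-04).

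Cdk6 (chr5:3341485-3531008, plus strand, overlapping antisense transcripts) stood at 127, 123 and 93.8 CPM in WT cells ex vivo and at 232, 206 and 214 CPM after CD40L. The Sh3gl1-/- cells had 132, 142 and 129 CPM and 214, 259 and 241 CPM. Again no treated library overlapped an untreated one. It rose 1.86-fold in WT cells (0.90, SE 0.12, edgeR adjusted p = 4.3e-05) and 1.75-fold in Sh3gl1-/- cells (0.81, SE 0.12, edgeR adjusted p = 1.4e-04). Their log2 TPM ratio differed by 0.15 in WT cells and by -0.17 in Sh3gl1-/- cells (exact permutation p = 0.7 for each). Per length Cdk4 was far above Cdk6 in every group, with mean log2 ratios from 3.67 to 4.24.

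The E-type cyclins parted from each other. Ccne2 (chr4:11191351-11204779, plus strand, overlapping Ints8 on the other strand) had 10.4, 12.7 and 9.63 CPM in WT cells ex vivo and 20.4, 18.7 and 58.0 CPM after CD40L. The Sh3gl1-/- cells had 12.1, 10.97 and 6.51 CPM and 25.1, 19.97 and 25.5 CPM. All treated libraries were above all untreated ones, with WT replicate 3 far above the rest. The rise was 1.54 on the log2 scale in WT cells (SE 0.37, edgeR adjusted p = 0.0033) and 1.24 in Sh3gl1-/- cells (SE 0.37, edgeR adjusted p = 0.015). Without WT replicate 3 the rise in WT cells was 0.82 (edgeR adjusted p = 0.014), and without replicate 3 of the untreated Sh3gl1-/- cells their rise of 1.02 was no longer called (edgeR adjusted p = 0.063).

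Ccne1 (chr7:38097984-38107534, minus strand), the other E-type cyclin, was low, at 10 to 50 counts per library in the follicular groups. It had 2.85, 2.96 and 2.78 CPM in WT cells ex vivo and 1.04, 0.735 and 2.69 CPM after CD40L. These did not overlap, though replicate 3 came close. The difference was -0.96 (SE 0.51, edgeR adjusted p = 0.13) and, without that replicate, -1.70 (edgeR adjusted p = 0.019). In Sh3gl1-/- cells it had 2.40, 2.17 and 3.58 CPM ex vivo and 1.98, 0.799 and 2.82 CPM after CD40L, which overlap (edgeR adjusted p = 0.41). The log2 TPM ratio of Ccne1 to Ccne2 differed by -3.02 in WT cells and by -2.62 in Sh3gl1-/- cells, with no overlap of libraries in either (exact permutation p = 0.1, the smallest possible, for each, adjusted p = 0.26).

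The inhibitors moved in opposite directions. Cdkn1b (chr6:134920401-134925513, plus strand), which encodes p27, the brake of resting lymphocytes, had 79.5, 73.2 and 68.4 CPM in WT cells ex vivo and 35.5, 27.9 and 21.1 CPM after CD40L. In Sh3gl1-/- cells it had 69.0, 70.4 and 72.0 CPM and 24.2, 34.9 and 29.0 CPM. The groups were well apart. It fell by 1.42 in WT cells (SE 0.18, edgeR adjusted p = 1.6e-05) and by 1.28 in Sh3gl1-/- cells (SE 0.18, edgeR adjusted p = 5.5e-05).

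Cdkn1a (chr17:29090976-29100727, plus strand, overlapping an unconfirmed transcript on the other strand), the p53 target that encodes p21, was the member with the widest range. Ex vivo it had 1.55, 1.05 and 0.902 CPM in WT cells and 0.976, 1.15 and 0.644 CPM in Sh3gl1-/- cells, at 9 to 24 counts. After CD40L it had 14.1, 12.4 and 3.92 CPM and 9.17, 8.31 and 8.51 CPM. The lowest treated library, WT replicate 3, was still above every untreated one. Cdkn1a rose 8.41-fold in WT cells (log2 fold change 3.07, SE 0.43, edgeR adjusted p = 4.9e-05) and 9.17-fold in Sh3gl1-/- cells (3.20, SE 0.44, edgeR adjusted p = 6.3e-05). Without WT replicate 3 the rise in WT cells was 3.47 (edgeR adjusted p = 1.2e-06). In WT replicate 3 Cdkn1a and Cdkn1b were lowest of the 3 treated WT libraries. Ccnd1, Ccnd2, Ccne1, Ccne2, Cdk4 and the inhibitor Cdkn2c were highest there, and Ccnd3 and Cdk6 lay in between.

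Cdkn2c (chr4:109660876-109667189, minus strand), which encodes p18, had 9.39, 11.4 and 12.1 CPM in WT cells ex vivo and 8.55, 8.08 and 10.3 CPM after CD40L. The Sh3gl1-/- cells had 7.36, 10.01 and 10.01 CPM and 7.90, 9.74 and 7.70 CPM. Its difference was -0.31 in WT cells (edgeR adjusted p = 0.22) and -0.13 in Sh3gl1-/- cells (edgeR adjusted p = 0.64), and the libraries overlapped in both. Of the 2 tested genes among 5 other CDK inhibitors 1 was called: Cdkn2d, which encodes the INK4 inhibitor p19, fell by 2.92 (edgeR adjusted p = 3.2e-10) and by 2.95 (edgeR adjusted p = 3.8e-10).

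**Figure D4:**
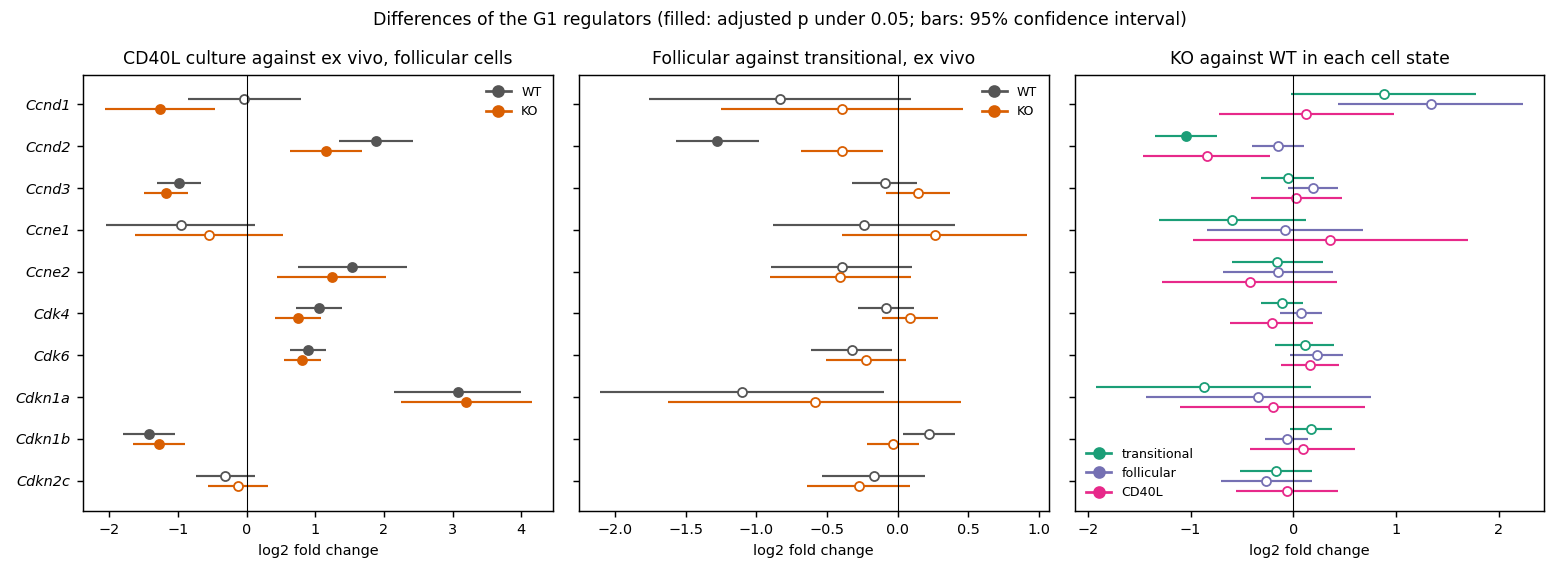
Fitted log2 fold changes (x axes) of the 10 genes (rows), with 95% confidence intervals as bars and filled points where the adjusted p is under 0.05: CD40L against ex vivo and follicular against transitional in WT (grey) and Sh3gl1-/- (orange, KO) cells, and KO against WT in each cell state (3 colours). Cdkn1a rose most with CD40L (3.07 and 3.20), and the single filled point between genotypes is Ccnd2 in transitional cells (-1.05).

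Around the 10 genes, other parts of the G1 pathway were counted from lists of names, which are not matched to the members in size. All list counts with CD40L, here and below, stand beside the shares of all genes called. These were 23.6% higher and 25.7% lower in WT cells, and 20.6% and 21.7% in Sh3gl1-/- cells. A list count near these shares shows nothing particular to its list. Of the 18 genes of S phase entry driven by E2F, 15 rose and 1 fell with CD40L in both genotypes (median log2 fold change 1.86 in WT and 1.29 in Sh3gl1-/- cells, against -0.08 and -0.03 over all genes tested). Among them were thymidylate synthase Tyms (2.52 in WT cells, edgeR adjusted p = 5.2e-05) and the ribonucleotide reductase subunit Rrm2 (2.87, edgeR adjusted p = 5.2e-05). Without WT replicate 3 the list still had 15 rises and 1 fall in both genotypes, but its median was 1.28 in WT and 1.3 in Sh3gl1-/- cells, with Tyms at 1.95 and Rrm2 at 2.18 in WT cells (edgeR adjusted p = 5.1e-05 and 3.8e-05). Of the 13 genes of the Rb and E2F list, 5 rose and 3 fell in WT cells and 2 rose and 3 fell in Sh3gl1-/- cells, with Rb1 itself lower in both (-1.34, edgeR adjusted p = 9.8e-06, and -0.80, edgeR adjusted p = 9.6e-04). The E2F partner Tfdp1 rose by 1.79 in WT cells (edgeR adjusted p = 7.3e-05) and by 1.43 in Sh3gl1-/- cells (edgeR adjusted p = 6.4e-04).

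Of the 9 genes of CDK2 and kinase activation, 7 rose and 1 fell in WT cells and 5 rose and 1 fell in Sh3gl1-/- cells. Mnat1, a subunit of the kinase that activates CDKs, rose by 1.64 in Sh3gl1-/- cells (edgeR adjusted p = 5.0e-07) and was also called in WT cells (edgeR adjusted p = 8.4e-07), and the phosphatase gene Cdc25b fell by 2.65 in WT cells (edgeR adjusted p = 1.5e-06). Among the 15 tested genes of the turnover of G1 regulators, 6 rose and 2 fell in WT cells and 5 rose and 1 fell in Sh3gl1-/- cells. Cks1b, the cofactor with which SKP2 marks p27 for degradation, rose by 2.48 in WT cells (edgeR adjusted p = 7.4e-06) and by 1.68 in Sh3gl1-/- cells (edgeR adjusted p = 2.5e-04). No value without WT replicate 3 is given here for Cks1b, or for Tfdp1 above and Myc below. Of the 7 genes of the DREAM and MuvB list, 2 rose and 1 fell in WT cells and 1 rose and 1 fell in Sh3gl1-/- cells, with Mybl2 higher by 3.77 in WT cells (edgeR adjusted p = 1.6e-05) and, without WT replicate 3, by 3.01 (edgeR adjusted p = 8.1e-06). Without that replicate the WT counts were 4 rises and 1 fall for CDK2 and kinase activation and 4 rises and 1 fall for turnover, beside 6 rises and 1 fall for each in Sh3gl1-/- cells.

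Among 16 tested transcription factors known to act on D cyclins and CDK inhibitors, 6 rose and 7 fell in WT cells and 5 rose and 5 fell in Sh3gl1-/- cells. Klf2, a factor of lymphocyte quiescence, fell by 4.97 in WT cells (edgeR adjusted p = 7.9e-07) and by 4.97 in Sh3gl1-/- cells (edgeR adjusted p = 1.2e-06). Foxo1, which activates Cdkn1b in other settings, fell by 1.70 (edgeR adjusted p = 7.7e-06) and by 1.67 (edgeR adjusted p = 1.2e-05), and Trp53, which encodes p53, rose by 1.01 (edgeR adjusted p = 2.4e-06) and by 0.51 (edgeR adjusted p = 0.0010). Myc, named here for the E-boxes and after its values were seen, rose in WT cells (1.09, edgeR adjusted p = 0.0014), while its value in Sh3gl1-/- cells was 0.49 (edgeR adjusted p = 0.099). The difference between these was -0.60 (edgeR adjusted p = 0.62).

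The p53 target list had 6 rises and 4 falls among 15 tested genes in WT cells and 7 rises and 4 falls in Sh3gl1-/- cells, so it did not move one way. Fas rose by 4.80 in WT cells (edgeR adjusted p = 2.7e-09) and by 3.91 in Sh3gl1-/- cells (edgeR adjusted p = 1.3e-08), and Trp53inp1 was lower (-2.07, edgeR adjusted p = 1.2e-07, and -1.66, edgeR adjusted p = 9.7e-07).

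Markers of other cells moved with the same contrast. All 8 T cell markers, all 6 NK cell markers and all 6 erythroid markers were lower after CD40L in both genotypes. The summed erythroid level was 1433 to 3864 CPM ex vivo and 6.55 to 362 CPM after CD40L in WT cells. The summed T cell level was 160 to 189 CPM ex vivo and 66.4 to 105 CPM after CD40L in WT cells. Of the 12 markers of cycling cells, 11 rose in WT cells and 4 in Sh3gl1-/- cells, and 8 rose in either when WT replicate 3 was left out of the fit. The part of these cells in the changes of the 10 genes was not tested.

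The second question was whether the response to culture with CD40L differed between genotypes. By edgeR 0 of the 10 members and 0 of the 14460 genes tested (0.0%) were called for the difference between the responses, while 8.84% of genes had an unadjusted p under 0.05 and DESeq2 called 38 genes, with 0 members among them. Among the members Ccnd1 alone had an unadjusted p under 0.05, with a difference of -1.23 (SE 0.54, edgeR adjusted p = 0.55). The response of Ccnd2 was lower in Sh3gl1-/- cells by 0.72 (95% interval -1.46 to 0.02, edgeR adjusted p = 0.57). Without WT replicate 3 this difference was -0.29 (edgeR adjusted p = 0.89). For Cdk6 the interval of the difference was -0.46 to 0.29, for Cdkn1b -0.39 to 0.66 and for Ccnd3 -0.63 to 0.26. For Cdkn1a the interval was wide, -1.16 to 1.41. In simulated data edgeR recovered 22 of 99 changes of 1 on the log2 scale for this difference, and 82 of 97 changes of 2. A member that was not called may therefore still differ.

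Within the CD40L-treated cells, 0 of 10 members were called between genotypes, beside 0.0227% of the 13190 genes tested (7.05% had an unadjusted p under 0.05). DESeq2 called 79 genes and 0 members. Ccnd2 was the 1 member with an unadjusted p under 0.05: all 3 Sh3gl1-/- libraries, 250 to 384 CPM, were below all 3 WT libraries, 407 to 905 CPM. By edgeR the difference was -0.85 (SE 0.28, edgeR adjusted p = 0.60), and without WT replicate 3 it was -0.43 (edgeR adjusted p = 1.0). Ccnd2 was the only member whose libraries did not overlap here, as did those of 13.8% of all genes tested. The 12 markers of cycling cells had a median difference of -0.75, with 0 of 12 called, and their summed level was 198, 120 and 274 CPM in Sh3gl1-/- cells and 199, 209 and 588 CPM in WT cells. Without WT replicate 3 the median difference was 0.01, and the remaining WT sums lay within the range of the Sh3gl1-/- sums.

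The third question was whether the loss of endophilin A2 changed the G1 regulators in cells that were not stimulated. In transitional cells 1 of the 10 members was called, Ccnd2, beside 3.73% of the 13775 genes tested. Its level was 326, 421 and 417 CPM in WT cells and 160, 217 and 185 CPM in Sh3gl1-/- cells. The groups did not overlap, and the highest Sh3gl1-/- library lay well under the lowest WT library. The difference was -1.05 on the log2 scale, or 0.484-fold (SE 0.14, 95% interval -1.35 to -0.74, edgeR adjusted p = 0.0093). Without replicate 3 of the Sh3gl1-/- cells the difference was -1.04 but was no longer called (edgeR adjusted p = 0.059).

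The other 9 members did not pass the test in transitional cells. Ccne1 was at 2.94, 3.72 and 3.55 CPM in WT cells and at 2.11, 1.91 and 2.73 CPM in Sh3gl1-/- cells, with a difference of -0.60 (edgeR adjusted p = 0.31). Cdkn1b was at 67.1, 59.1 and 64.0 CPM and at 74.3, 71.2 and 68.9 CPM, a difference of 0.17 (edgeR adjusted p = 0.30). With Ccnd2 these were the 3 members of 10 whose libraries did not overlap, beside 28.0% of all genes tested. For Cdk4 and Ccnd3 the 95% intervals of the difference were -0.31 to 0.09 and -0.32 to 0.20. Ccnd1 differed by 0.88 (95% interval -0.03 to 1.78, edgeR adjusted p = 0.24) and Cdkn1a by -0.87 (-1.92 to 0.17, edgeR adjusted p = 0.31). The libraries of both overlapped. The log2 ratio of Ccnd2 to Ccnd3 was 2.63 ± 0.511 in WT and 1.67 ± 0.206 in Sh3gl1-/- cells, with no overlap (exact permutation p = 0.1, the smallest possible with 3 libraries a group, adjusted p = 0.26).

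The fall of Ccnd2 went with other genes of proliferation. Of the 12 markers of cycling cells 11 were lower in transitional Sh3gl1-/- cells (median -1.33), and their summed level was 292, 453 and 429 CPM in WT cells and 180, 135 and 177 CPM in Sh3gl1-/- cells. Of the 18 genes of S phase entry 7 were lower and 0 higher. They were Rrm2 (-1.21, edgeR adjusted p = 0.0039), Rrm1 (-0.58), Tyms (-0.84) and the helicase subunits Mcm3 (-0.70), Mcm4 (-0.51), Mcm5 (-0.72) and Mcm7 (-0.55). On the Rb and E2F list E2f2 (-0.96, edgeR adjusted p = 0.011) and E2f8 (-1.81, edgeR adjusted p = 0.044) were lower. Cdkn3, a phosphatase that acts on CDKs, was lower by 1.34 (edgeR adjusted p = 0.034), and so was the Myc partner Max (-1.05, edgeR adjusted p = 0.040), while Myc differed by -0.05 (edgeR adjusted p = 0.84). None of the 8, 15, 14 and 7 tested genes of the CDK2, turnover, p53 and DREAM lists was called.

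Markers of other cells and stages also differed between these transitional libraries. All 6 erythroid markers were called higher in Sh3gl1-/- cells, with sums of 4447 to 9523 CPM against 2283 to 3976 CPM. The plasma cell sum was 1165 to 4641 CPM against 512 to 737 CPM, with 1 of 6 markers called, and the neutrophil sum was 108 to 523 CPM against 45.7 to 86.3 CPM, with 1 of 5 tested markers called. The transitional marker sum was 359 to 584 CPM against 596 to 659 CPM, with 0 of 4 tested markers called. The follicular marker sum was 6270 to 7113 CPM against 5219 to 6509 CPM, which overlap, with 1 of 6 markers called higher and 1 lower. The marginal zone B cell sum was lower in Sh3gl1-/- cells, at 279.5 to 338 CPM against 444 to 449.8 CPM, with 1 of 6 markers called (Cd1d1, -0.69, edgeR adjusted p = 0.013). The germinal centre B cell sum was 83.7 to 88.7 CPM against 55.6 to 75.2 CPM, with 1 of 5 tested markers called (Rgs13, 0.92, edgeR adjusted p = 0.027). The part of these differences in that of Ccnd2 was not tested.

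**Figure D5:**
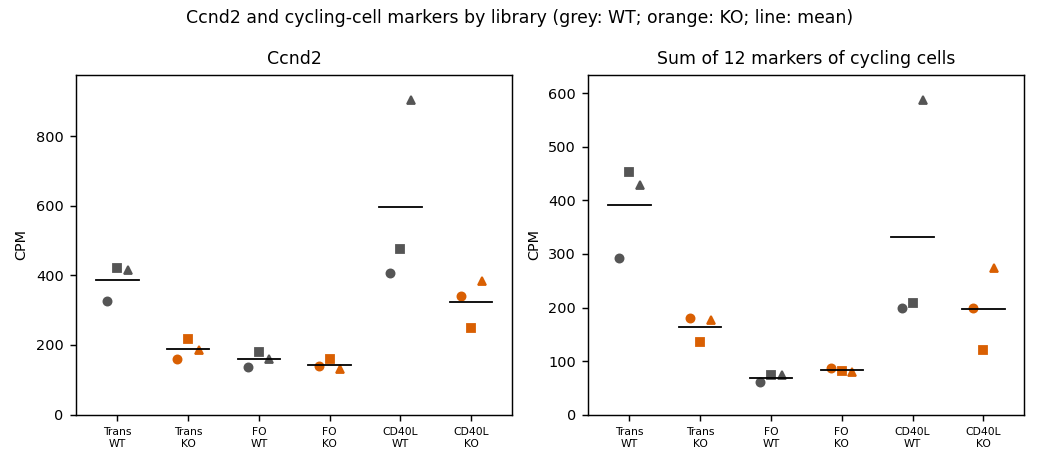
CPM (y axes, linear, from 0) of Ccnd2 and of the sum of 12 markers of cycling cells in each library, by group (x axes), with grey points for WT, orange points for Sh3gl1-/- (KO), a symbol for each replicate number and a line at the mean. In both panels transitional Sh3gl1-/- cells lie below transitional WT cells, and replicate 3 of the CD40L-treated WT cells is highest, at 905 CPM for Ccnd2 and 588 CPM for the markers.

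In follicular cells ex vivo 0 of the 10 members were called between genotypes, beside 0.845% of 13610 genes (10.9% had an unadjusted p under 0.05, and DESeq2 called 355 genes and 0 members). None of the genes of the 8 pathway lists was called here or after CD40L between genotypes. Ccnd2 differed by -0.15 (95% interval -0.40 to 0.11, edgeR adjusted p = 0.74). Ccnd1 had the largest difference of the 10 and the only unadjusted p under 0.05 among the members, at 4.88, 2.17 and 4.94 CPM in Sh3gl1-/- cells against 1.36, 1.85 and 1.504 CPM in WT cells, which do not overlap. Its difference was 1.33 (SE 0.41, edgeR adjusted p = 0.21). Cdk6 was the other member without overlap, at 132, 142 and 129 CPM against 127, 123 and 93.8 CPM (0.23, edgeR adjusted p = 0.54). Of all genes tested, 16.0% had libraries that did not overlap.

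In the same libraries the sum of T cell markers was 242 to 280 CPM in Sh3gl1-/- cells and 160 to 189 CPM in WT cells, with 2 of 8 markers called. The sum of monocyte, macrophage and dendritic cell markers was 256, 115 and 209 CPM in the 3 Sh3gl1-/- replicates and 110, 119 and 148 CPM in WT cells. The neutrophil sum was 744, 166 and 276 CPM and 166, 69.8 and 58.6 CPM. The germinal centre B cell sum was 43.3, 38.4 and 35.5 CPM and 18.01, 28.0 and 10.5 CPM. Replicate 2 of the Sh3gl1-/- cells had the lowest Ccnd1 of its group. It also had the lowest monocyte, neutrophil, T cell, NK cell and erythroid sums of its group, but not the lowest germinal centre sum. WT replicate 1 had nearly the same neutrophil sum as that library, and the lowest Ccnd1 and the lowest monocyte sum of all 6. The study's staining scheme for follicular cells (B220+ CD93-, by CD23 and CD21/35) asks for B220. Whether the RNA sort used it is not stated. Whether cells other than follicular B cells carry the Ccnd1 counts was not tested.

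The last comparison followed the step from transitional to follicular cells. In WT cells 1 member was called, again Ccnd2, beside 25.9% of the 14580 genes tested. It fell from 388 ± 53.9 CPM (SD, n = 3) to 159 ± 20.9 CPM, by 1.28 on the log2 scale (SE 0.14, edgeR adjusted p = 2.7e-05). The lowest transitional library, at 326 CPM, was well above the highest follicular library, at 179 CPM. In Sh3gl1-/- cells Ccnd2 went from 188 ± 28.6 CPM to 144 ± 16.0 CPM, by -0.40 (SE 0.14, edgeR adjusted p = 0.082), the libraries met at 160 and 161 CPM, and 0 members were called by edgeR beside 10.4% of genes. Ccnd2 was the 1 member with an unadjusted p under 0.05 there, beside 23.9% of genes, and the 1 member that DESeq2 called.

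Over this step same-numbered libraries of a genotype deviated alike from their group means (r of 0.103 to 0.263). The labels do not pair them. The pairing was read from these same data, and the calls with a block rest on it. With the replicate number within genotype as a block, the fall of Ccnd2 in Sh3gl1-/- cells, -0.39, was called (edgeR adjusted p = 0.0051), beside 13.4% of genes in that fit. The difference of the step between genotypes was 0.88 for Ccnd2 (SE 0.19, 95% interval 0.47 to 1.29), which was not called without the block (edgeR adjusted p = 0.098) and was called with it (0.89, edgeR adjusted p = 0.017). It was the 1 member called with the block, beside 0.679% of genes, and 0 members were called without it, beside 0.0686%. Rrm2 (1.54, edgeR adjusted p = 0.041) and Mcm5 (1.09, edgeR adjusted p = 0.045) of the S phase list were called without the block.

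Cdk6 went from 149, 167 and 118 CPM to 127, 123 and 93.8 CPM in WT cells, replicate by replicate lower. Its difference of -0.33 was not called (edgeR adjusted p = 0.087) without the block and was called with it (-0.32, edgeR adjusted p = 0.010), beside 29.1% of genes in that fit. Cdkn1a went from 3.21, 1.79 and 2.60 CPM to 1.55, 1.05 and 0.902 CPM in WT cells (-1.10, edgeR adjusted p = 0.10), and Cdkn1b from 67.1, 59.1 and 64.0 CPM to 79.5, 73.2 and 68.4 CPM (0.22, edgeR adjusted p = 0.068). Neither overlapped, so that 3 of 10 members did not, beside 40.7% of all genes. In Sh3gl1-/- cells the 2 members without overlap were Cdk6 (-0.22, edgeR adjusted p = 0.34) and Cdkn2c (-0.28, edgeR adjusted p = 0.36), beside 30.4% of all genes. For Cdk4 the 95% intervals of the step were -0.28 to 0.11 in WT and -0.11 to 0.28 in Sh3gl1-/- cells.

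All 12 markers of cycling cells were lower in follicular than in transitional WT cells (median -2.60), and 7 of 12 were lower in Sh3gl1-/- cells (median -0.95). Of the 18 S phase genes 12 fell and 1 rose in WT cells, and 2 fell in Sh3gl1-/- cells. Of the 13 Rb and E2F genes 5 fell and 1 rose in WT cells, and 1 fell in Sh3gl1-/- cells. The comparisons of this step share the follicular libraries with those of CD40L and the transitional libraries with the genotype comparison, so they are not independent of them.

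Across the 6 groups the order of levels was as follows for the members that moved most. Ccnd2 was highest in CD40L-treated WT cells, then in transitional WT and CD40L-treated Sh3gl1-/- cells, and each of these overlapped the next. The CD40L-treated groups did not overlap each other (lowest 407 CPM in WT and highest 384 CPM in Sh3gl1-/- cells). A gap set these 3 groups apart from transitional Sh3gl1-/-, follicular WT and follicular Sh3gl1-/- cells, which overlapped in turn. For Cdk4, Ccne2 and Cdkn1a both CD40L groups were above all 4 groups ex vivo with no overlap, and within either set neighbours overlapped. Cdk6 had the same gap and a second, narrow one between follicular Sh3gl1-/- (lowest 129 CPM) and follicular WT cells (highest 127 CPM). Ccnd3 and Cdkn1b had the reverse order, with both CD40L groups lowest, and for Cdkn1b transitional WT cells (highest 67.1 CPM) also lay under follicular Sh3gl1-/- cells (lowest 69.0 CPM). Among the neighbours for Ccnd1, Ccne1 and Cdkn2c, none was free of overlap.

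For the 4 members with the widest range of group means, the genes most like them over the 18 libraries were ranked by Pearson's r of log2 CPM among 15117 genes. The libraries fall into 6 groups, so these values describe the group pattern. For Cdkn1a (range 3.11 on the log2 scale) they were Dalrd3 (0.933), Phlpp1 (0.932) and Specc1 (0.928). For Ccnd2 (range 1.97) they were Dtl (0.959), which encodes an adaptor of a ubiquitin ligase active in S phase, Nono (0.958) and Pepd (0.957). For Ccnd1 (range 1.63) they were Ces2g (0.918), Bex6 (0.857) and Rgs1 (0.857). For Ccne2 (range 1.55) they included Hells (0.941) and Chek2 (0.923).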

How the data were processed

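Polyadenylated RNA of 18 libraries was sequenced. The submitters' processing notes name cutadapt 1.9.1, STAR 2.5.2a and RSEM 1.3.0 with GRCm38. The study's methods name other alignment and quantification tools, and another library kit than the labels. Annotation release and strand setting are not given in the sources used here. CD40L culture is overnight in the methods and longer than the labels' time in a legend. For spleen staining the methods take follicular cells from mature B220+ CD93- cells by CD23 and CD21/35, and transitional cells from B220+ CD93+ cells by CD23 and IgM; whether the RNA sort used the same gates is not stated. The authors deposited expected counts, TPM and FPKM per gene. The deposited expected counts share reads by estimate, so genes that overlap others (Ccnd1, Ccnd2, Ccnd3, Ccne2, Cdk4, Cdk6 and Cdkn1a) are less certain. The counts of Ccne1, Cdkn1a, Cdkn1b and Cdkn2c were whole in every library.

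Identifiers were matched to GENCODE M21 symbols (51719 of 51912). Expected counts were rounded and tested with edgeR 4.0.16 in R 4.3.3 (TMM, filterByExpr by group, quasi-likelihood F test, Benjamini-Hochberg over all genes tested), checked first on simulated data. Genotypes were compared within each cell state, CD40L responses over 12 follicular libraries, and the step from transitional cells over 12 libraries ex vivo. CPM are on 1 TMM scale over 18 libraries. Ratios of deposited TPM (0.01 added) were tested by two-sided exact permutation. Implied length is the count divided by FPKM and by total counts, for genes with FPKM of at least 1 and 10 counts in all libraries. The floor of 3 counts covers counting error only.

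Alternatives were RLE scaling, other filters, DESeq2 1.42.0, replicate blocks, 1 fit of all libraries and leaving out each library. Over 15117 genes the deviations of same-numbered libraries correlated at 0.103 to 0.263 between transitional and follicular cells of a genotype and at 0.136 to 0.224 between follicular and CD40L-treated WT cells, but at 0.03 to 0.119 in Sh3gl1-/- cells with CD40L and at -0.087 to 0.101 between genotypes. The pairing thus comes from the data, within genotype, and not from the labels. All members are named; of each pathway list at most 4 genes are, by lowest adjusted p in the WT CD40L response or by a call between genotypes. Members and lists were chosen with earlier results of these data known. One gene that the rule for likeness names is not reported here.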

Additional observations from a re-analysis of the deposited data

Results flagged for a closer look

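For Ccnd3 the libraries of the 2 genotypes lay on opposite sides over the step from transitional to follicular cells: all 3 follicular WT libraries lay below the mean of the transitional WT libraries on the log2 CPM scale, and all 3 follicular Sh3gl1-/- libraries lay above the mean of theirs. The edgeR test of the difference itself gave 0.23 on the log2 scale (SE 0.15, edgeR adjusted p = 0.52), so it was not called. Some libraries lay close to those means, with WT replicate 1 at 5.15. Between libraries of the same number, follicular Sh3gl1-/- replicate 2 was lower than its transitional counterpart (5.12 against 5.28), while replicates 1 (5.33 against 4.98) and 3 (5.28 against 5.004) were higher.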

How the results depend on the processing

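Of 31 member results that were called or did not overlap, or that an alternative called, 22 kept their direction and side of the threshold in every alternative run, as did 14 of the 17 called, and 0 reversed. Keeping all genes with at least 1 count brought the members called from 0 to 1 (Ccnd2) for genotypes after CD40L, for the difference in CD40L response, for the step from transitional to follicular cells in Sh3gl1-/- mice and for the difference of that step, and from 1 to 2 for the step in WT mice (Cdk6 added). For the last 3 of these, DESeq2 and the replicate block within genotype also gave 1, 1 and 2, and the replicate block by number alone gave 1 and 1 for the first 2. That block also called Ccne1 in the WT CD40L response (edgeR adjusted p = 0.043), which the block within genotype did not (edgeR adjusted p = 0.068), and the blocks changed no other call of a member. Leaving out 1 library gave 0 to 1 members called between genotypes in transitional cells, 7 to 8 and 6 to 8 for the WT and Sh3gl1-/- CD40L responses, and 1 to 2 for the step in WT mice. All genes called changed more: between genotypes in transitional cells 514 became 1415 with all genes of at least 1 count, 1374 with DESeq2, 144 with all 18 libraries in 1 fit, 90 with the replicate block and 28 to 479 without 1 library. The same counts were 115, 602, 355, 49, 212 and 32 to 112 in follicular cells, 3, 216, 79, 82, 21 and 1 to 9 after CD40L, 0, 208, 38, 0, 0 and 0 to 1 for the difference in CD40L response, and 10, 453, 365, 0, 20 and 0 to 23 for the difference of the step (99 with the block within genotype). For the step itself leaving out 1 library gave 2444 to 3774 for 3772 genes in WT and 985 to 1650 for 1521 in Sh3gl1-/- mice. The cause was not tested. Depth limits Ccnd1, Ccne1 and Cdkn1a, which had as few as 9 counts in a library.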
